A study of Mus musculus with 4 samples.

Results

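The 8 genes described here encode the repressor side of the circadian clock: Nr1d1, Nr1d2, Gm129, Per1, Per2, Per3, Cry1 and Cry2. They were taken by symbol from a table of 17778 genes, and each symbol was found once (Gm129 is the older name of Ciart). The RNA came from both sides of the mPFC (medial prefrontal cortex, at the front of the neocortex) in male C57BL/6 mice (C57BL/6J in the methods of the study), juvenile when the experiment began. The CUMS group (2 libraries) had gone through chronic unpredictable mild stress (CUMS), weeks of changing mild stressors with social isolation throughout. Only stressed mice that then showed depression-like behavior in each of the tests of sucrose preference, Y-maze and forced swimming were used. These were a minority of the stressed mice, and those without any change in the tests were left out. The control group (2 libraries) lived without these stressors under a fixed cycle of light and dark. Strobe light and circadian disturbance were among the stressors. Tissue was taken a day after the behavior tests, which the study describes as run in the same circadian cycle for all mice. The hour at which tissue was taken is not given in the sources used here. Stress, the selection of mice by behavior, altered light and the phase of the clock therefore cannot be told apart in these values. RNA was isolated mouse by mouse, and whether a library held 1 mouse or a pool is not stated.

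The clock runs as a loop of transcription. The activators ARNTL and CLOCK (or NPAS2 in its place) bind short DNA elements named E-boxes and switch on the Per, Cry, Nr1d and Ciart genes. The PER and CRY proteins then accumulate and block the activators, the CIART protein (also called CHRONO) represses them as well, and the REV-ERB proteins of Nr1d1 and Nr1d2 repress Arntl, so that all these transcripts rise and fall over a day. In the forebrain this rhythm is known to be set in part by signals from the hypothalamus and by glucocorticoid hormones, and Per1 also responds to neuronal activity.

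To show the elements through which these genes are known to be switched on, promoter sequences from RefSeq (GRCm38.p6, the assembly of mm10) were searched. Windows ran from 250 bases before to 50 bases after a start and were held for 7 of the 8 genes (8 windows, since Per1 had 2 starts). Per2 had no entry. Both strands were searched for the E-box CACGTG, its variant CACGTT (here E prime box), the D-box TTATGTAA or TTACGTAA, the core of the ROR element TAGGTCA or TGGGTCA, and the cAMP response element TGACGTCA. Printed below are the 250 bases before the start for the genes with the largest differences, with every match in capitals, written 5′ to 3′ along the gene. All 3 genes lie on the minus strand. The window of Gm129 is chr3:95882229-95882478, that of Nr1d1 is chr11:98775378-98775627 and that of Cry1 is chr10:85185055-85185304. AACGTG in capitals is CACGTT on the other strand.
Gm129: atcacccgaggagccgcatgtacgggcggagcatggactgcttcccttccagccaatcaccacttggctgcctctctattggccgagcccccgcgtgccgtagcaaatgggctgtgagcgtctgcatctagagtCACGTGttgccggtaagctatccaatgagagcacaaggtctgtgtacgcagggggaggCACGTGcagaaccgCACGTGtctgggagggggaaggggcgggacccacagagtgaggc
Nr1d1: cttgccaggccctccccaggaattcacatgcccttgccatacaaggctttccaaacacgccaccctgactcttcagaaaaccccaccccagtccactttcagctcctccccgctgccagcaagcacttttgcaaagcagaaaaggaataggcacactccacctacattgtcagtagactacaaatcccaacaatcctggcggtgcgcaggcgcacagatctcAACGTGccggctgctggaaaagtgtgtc
Cry1: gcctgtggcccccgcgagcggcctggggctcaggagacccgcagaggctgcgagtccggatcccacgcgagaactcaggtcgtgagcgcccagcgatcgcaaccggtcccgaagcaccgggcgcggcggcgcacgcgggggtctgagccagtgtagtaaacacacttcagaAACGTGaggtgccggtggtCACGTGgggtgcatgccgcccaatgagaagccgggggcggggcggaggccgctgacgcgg

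Gm129 held 3 E-boxes, whose first bases lay at -116, -58 and -44, counted from the start. At least 3 E-boxes were found in 29 of all 32851 promoter windows (0.0883%), and at least 1 in 7.15%. The cutoff of 3 is the count in Gm129 itself and was not planned, so the share of 0.0883% is a description only. Nr1d1 held 1 E prime box at -28, a motif found in 4.68% of all windows. The last bases of its window, and those of the second start of Per1, were not found in a GENCODE M21 transcript of the gene. Positions in all genes are counted from the RefSeq start and hold for that start only. GENCODE M21 can place a start elsewhere in other genes too. Its span of Gm129, for example, ends at 95882251, inside the printed window. Cry1 held 1 E-box at -60 and 1 E prime box at -79.

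The matches in the other genes are shown with 12 bases on either side, to set the element of each Per and Cry gene beside those above. The first start of Per1 (chr11:69098771-69098800, plus strand) and Cry2 (chr2:92434218-92434247, minus strand) each held 1 match at -166, an E-box in Per1 and an E prime box in Cry2. Per3 held no E-box but 2 D-boxes, the element bound by DBP, TEF, HLF and NFIL3, at -205 (chr4:151044851-151044882) and -158 (chr4:151044804-151044835) on the minus strand.
Per1: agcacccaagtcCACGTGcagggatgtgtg
Cry2: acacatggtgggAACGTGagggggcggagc
Per3 first: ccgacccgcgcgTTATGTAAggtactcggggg
Per3 second: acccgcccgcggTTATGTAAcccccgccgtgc

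D-boxes were found in 1.06% of all windows, and 2 or more, a cutoff likewise set at the count in Per3, in 0.0244%. Nr1d2 and the second start of Per1 held no match to any of the letters searched. No core of the ROR element (6.45% of all windows) and no full cAMP response element (1.79%) lay in any of the 8 windows, and no match overlapped another. The windows are short, and a match is only a run of letters. Whether matches relate to the ratios between groups was not tested.

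**Figure D1:**
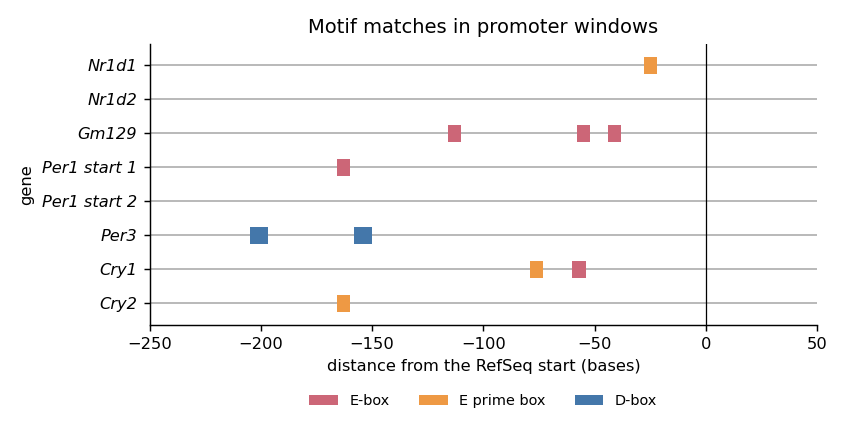
Motif matches in the promoter windows of 7 clock repressor genes (8 starts), drawn to scale along the distance from the RefSeq start in bases (x axis, 0 is the start). Blocks are matches to the E-box, the E prime box and the D-box. The 3 E-boxes of Gm129 and the 2 D-boxes of Per3 stand out.

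The table held 1 mean per gene and group in RPKM (reads scaled by gene length in kilobases and by library size), averaged by the authors over the libraries of a group. Neither the spread between mice nor overlap between the groups can therefore be given for any gene from these means. The only error available from them is counting error. The study also reports Nr1d1 as raised in CUMS mice by quantitative RT-PCR. It states that this was run on tissues used for the sequencing, so it is a second measure and no independent set of samples. From the steps between low values depth was estimated at 7385524 fragments for each control library and at 7440476 for each CUMS library, and each gene's RPKM was turned into estimated fragments summed over both libraries of its group. This estimate lies below the read totals that the study gives for its libraries, and the gap was not resolved. At a greater depth the fragment numbers would be higher and the bounds narrower. The bounds in brackets after a log2 ratio (CUMS over control) are 95% bounds from these fragments (Clopper-Pearson, exact), and they cover counting error only. All 8 genes had at least 5 RPKM in both groups and rested on 171 to 3790 fragments per group.

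Of the 8 repressors, 4 had a higher and 4 a lower mean in CUMS, and the median log2 ratio was -0.018, against -0.015 over the 14257 genes that reached 0.5 RPKM in a group. The median of the list thus lay close to that of all genes. A fold above 1.5, the fold part of the threshold the study used, was reached by 2 repressors, Gm129 and Nr1d1, both higher in CUMS, and by none that was lower. Over the 14257 genes 2.78% were past this fold as higher and 4.41% as lower. The counting interval lay above 0 for 3 repressors (Gm129, Nr1d1 and Nr1d2), against 12.5% of all genes, and below 0 for 3 (Cry1, Per2 and Per3), against 16.8%. The intervals of Per1 and Cry2 held 0. Intervals are narrower for genes with more fragments. The 8 repressors all had at least 5 RPKM in both groups, whereas the shares cover genes from 0.5 RPKM in a group. No share matched by level was computed. The 8 genes were picked with such values already known, so these shares are descriptions.

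**Figure D2:**
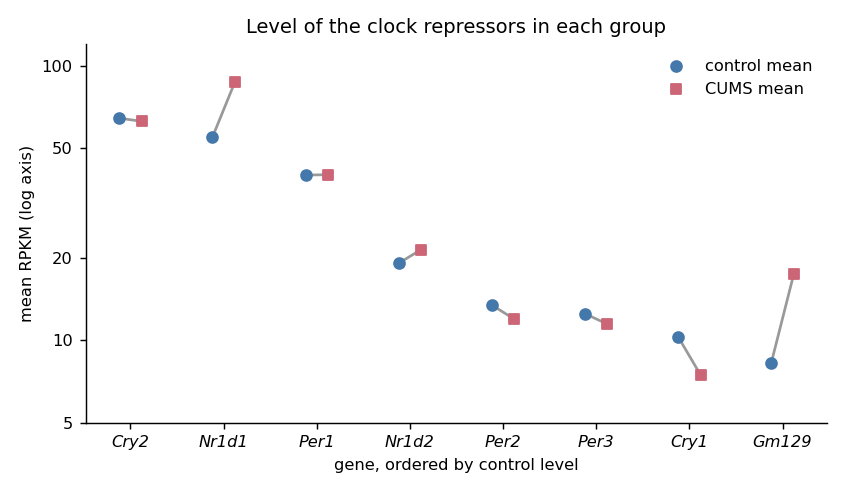
Mean RPKM (y axis, log scale) of the 8 clock repressors in control (circles) and CUMS (squares), ordered by the control level. Each point is the mean of 2 libraries, for which no error between mice can be drawn. Nr1d1 and Gm129 were higher in CUMS, Cry1 was lower, and the lines of Per1 and Cry2 are nearly flat.

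The REV-ERB genes come first. Nr1d1 (gene 217166, chromosome 11, 98767932 to 98775333, minus strand) encodes REV-ERB alpha, a nuclear receptor that binds heme and recruits a corepressor. It was 54.85 RPKM in control (2128 fragments) and 86.95 RPKM in CUMS (3399 fragments). The log2 ratio was 0.66 (0.59 to 0.74), a 1.59-fold higher level that is close to the threshold of 1.5. The difference of 32.1 RPKM was the largest in RPKM among the 8 genes. By level, Nr1d1 moved from rank 1451 to rank 884 of all 17778 genes. Of the 9397 genes that reached 5 RPKM in a group, 17 had a log2 ratio at least as high, Nr1d1 included.

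Nr1d2 (gene 353187, chromosome 14, 18204054 to 18239127, minus strand) encodes REV-ERB beta, which acts on the same elements. It was 19.075 RPKM in control (1307 fragments) and 21.375 RPKM in CUMS (1476 fragments), with a log2 ratio of 0.16 (0.056 to 0.27). The pair therefore differed in the same direction but by unequal amounts. The log2 ratio of Nr1d1 was higher than that of Nr1d2 by 0.50, and the exact conditional interval of this difference, 0.37 to 0.64, left out 0.

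The value of Nr1d1 touches that of its neighbor. Thra, the gene of thyroid hormone receptor alpha, lies on the opposite strand (chromosome 11, 98740638 to 98769006), and in GENCODE M21 its exons share 263 bases with those of Nr1d1. Whether reads were assigned by strand is not stated. The level of Thra was 293.36 RPKM in control against 324.78 RPKM in CUMS, a log2 ratio of 0.15 (0.11 to 0.19). If the shared bases had been read at the mean density of Thra, they would hold 1140 fragments in control and 1271 in CUMS. Taken off, 988 and 2128 fragments of Nr1d1 would be left, a log2 ratio of 1.10. The level of Nr1d1 would then be 25.5 RPKM in control and 54.4 RPKM in CUMS, and its log2 ratio would exceed that of Nr1d2 by 0.93. This is 1 scenario and no bound, since the density of Thra reads over these bases was not measured. The length given by the authors for Nr1d1 is 2627 bases, against 3077 exon bases in GENCODE M21. Whether the exons they counted hold the shared bases is therefore not known.

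Gm129 (Ciart, gene 229599, chromosome 3, 95878503 to 95882251, minus strand), the gene of the repressor CHRONO, was the lowest of the 8 genes in control. It was 8.29 RPKM in control (171 fragments) and 17.385 RPKM in CUMS (361 fragments). The log2 ratio was 1.07 (0.80 to 1.34), a 2.1-fold higher level in CUMS and the largest ratio of the 8 genes as deposited (with the Thra fragments taken off, Nr1d1 would be at 1.10). Of the 9397 genes that reached 5 RPKM only Tmem254b had a higher log2 ratio (1.34). Tmem254b is named because of its value, and it rested on 80 and 203 fragments and has close copies (Tmem254a and Tmem254c) among which reads could be split. Gm129 rested on the fewest fragments of the 8 genes and has the widest interval, although its lower end lies above the ratio of every other repressor as deposited. The noncoding gene C920021L13Rik spans Gm129 on the opposite strand, shares no exon bases with it and was not in the table.

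**Figure D3:**
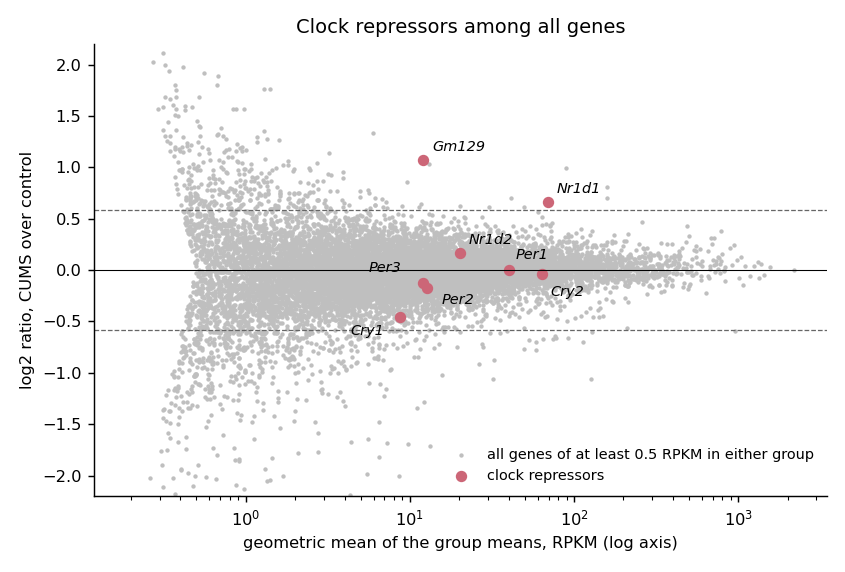
Log2 ratio (y axis, CUMS over control) against the geometric mean of the group means in RPKM (x axis, log scale) for genes that reached 0.5 RPKM in a group (grey) and the 8 clock repressors (red), with dashed lines at a fold of 1.5 in either direction. Of the 14257 genes, 23 listed at 0.01 in a group were not drawn and 47 lie beyond the axis limit of 2.2. Gm129 and Nr1d1 lie above the upper dashed line, and the other 6 repressors lie between the lines.

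The Period genes encode proteins that are phosphorylated by casein kinases and enter the nucleus in a complex with the CRY proteins. Per1 (gene 18626, chromosome 11, 69095217 to 69109960, plus strand) was 39.965 RPKM in control (2752 fragments) and 40.07 RPKM in CUMS (2779 fragments), a log2 ratio of 0.004 (-0.073 to 0.080). The 2 group means were thus nearly equal, and a difference within these bounds was not detectable at this depth.

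Per2 (gene 18627, chromosome 1, 91415982 to 91459324, minus strand) was 13.43 RPKM in control (1160 fragments) and 11.925 RPKM in CUMS (1037 fragments), a log2 ratio of -0.17 (-0.29 to -0.050). Per3 (gene 18628, chromosome 4, 151003652 to 151044665, minus strand) was 12.485 RPKM in control (1098 fragments) and 11.44 RPKM in CUMS (1013 fragments), a log2 ratio of -0.13 (-0.25 to -0.0024). Both were slightly lower in CUMS, and the interval of Per3 only just left out 0. Per3 lies within the span of Camta1 on the same strand but shares no exon bases with it in GENCODE M21. Among the Period genes, the log2 ratio of Per1 exceeded that of Per2 by 0.18 (0.031 to 0.32). The intervals of Per1 against Per3 (0.13, -0.016 to 0.28) and of Per2 against Per3 (-0.045, -0.22 to 0.13) held 0.

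The Cryptochrome genes encode the proteins that hold the activators in check most directly. Cry1 (gene 12952, chromosome 10, 85131700 to 85185064, minus strand) was 10.275 RPKM in control (461 fragments) and 7.47 RPKM in CUMS (337 fragments). Its log2 ratio of -0.46 (-0.67 to -0.26) was the lowest of the 8 genes, a 1.38-fold lower level in CUMS that did not reach the threshold of 1.5. Of the 9397 genes that reached 5 RPKM, 217 had a log2 ratio as low or lower, Cry1 included.

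Cry2 (gene 12953, chromosome 2, 92403646 to 92434043, minus strand) was 64.435 RPKM in control (3790 fragments) and 62.705 RPKM in CUMS (3716 fragments), a log2 ratio of -0.04 (-0.10 to 0.026). By level it held rank 1235 in control and rank 1284 in CUMS. The noncoding gene D930015M05Rik on the opposite strand shares 295 exon bases with Cry2 and was not in the table. The log2 ratio of Cry1 was lower than that of Cry2, with a difference of -0.42 (-0.64 to -0.21). In all, 3 of the 5 pairs of paralogs compared (Nr1d1 with Nr1d2, Per1 with Per2, Cry1 with Cry2) had intervals that left out 0.

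The make-up of the families followed from these values. RPKM is a level per length, so that members can be summed. The summed level of Nr1d1 and Nr1d2 was 73.925 RPKM in control against 108.325 in CUMS, of which Nr1d1 made up 74.2% and 80.3%. The summed level of the Period genes was 65.88 and 63.435 RPKM, with Per1 at 60.7% and 63.2%. The summed level of Cry1 and Cry2 was 74.71 and 70.175 RPKM, with Cry1 at 13.8% and 10.6%. As deposited, the REV-ERB sum lay between the other 2 in control and above both in CUMS. With the Thra fragments taken off, the REV-ERB sum would be 44.5 RPKM in control, below the other 2, and 75.8 RPKM in CUMS, with Nr1d1 at 57.2% and 71.8%. In relation to the summed level of the activators Arntl, Clock and Npas2 (31.32 RPKM in control against 30.31 in CUMS), the REV-ERB sum was 2.36-fold in control and 3.57-fold in CUMS (1.42-fold and 2.50-fold with the Thra fragments taken off). The Period sum was 2.10-fold and 2.09-fold, and the Cryptochrome sum was 2.39-fold and 2.32-fold.

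**Figure D4:**
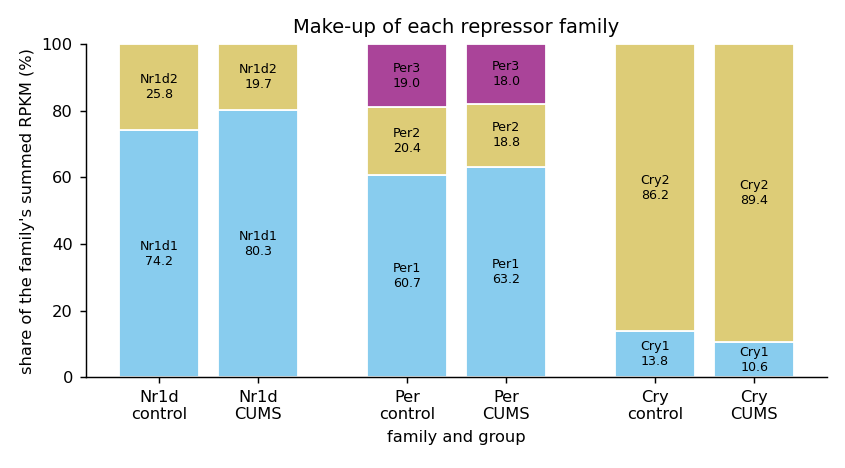
Share of each member in the summed mean RPKM of its family (y axis, percent from 0 to 100) in control and CUMS. Nr1d1 made up 74.2% of the REV-ERB sum in control and 80.3% in CUMS, and Cry1 made up 13.8% and 10.6% of the Cryptochrome sum, all as deposited.

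Levels differed between the repressors by up to 7.77-fold in control and 11.6-fold in CUMS. The order from high to low in control was Cry2, Nr1d1, Per1, Nr1d2, Per2, Per3, Cry1 and Gm129. In CUMS it was Nr1d1, Cry2, Per1, Nr1d2, Gm129, Per2, Per3 and Cry1. Nr1d1 and Cry2 had changed places at the top, Gm129 stood above Per2, Per3 and Cry1, and the remaining order was the same. With the Thra fragments taken off, Nr1d1 would hold place 3 in control, under Per1, and place 2 in CUMS, under Cry2, so that it and Cry2 would not change places. In both groups Per2 and Per3 were the only neighbors whose levels did not differ beyond counting error (log2 level ratio 0.11, -0.015 to 0.23, in control and 0.060, -0.066 to 0.19, in CUMS). The gene lengths used by the authors for Per1 and Cry2 were not whole numbers, which bears on their levels but not on their ratios between groups.

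The other genes of the clock were described by 6 lists with 34 genes, all in the table, of which 33 reached 0.5 RPKM in a group (Rora did not). Of these, 0 were past a fold of 1.5 as higher and 3 as lower in CUMS, beside 2.78% and 4.41% of all genes. The counting interval lay above 0 for 5 and below 0 for 9, beside 12.5% and 16.8% of all genes (not matched by level), and the median log2 ratio was -0.033.

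Among the activators and the receptor genes listed with them, none of 5 was past the fold in either direction. Arntl, which REV-ERB proteins are known to repress, had 10.19 RPKM in control against 10.15 in CUMS, a log2 ratio of -0.006 (-0.20 to 0.19). Clock was 4.875 and 4.27 RPKM, with a log2 ratio of -0.19 (-0.37 to -0.010). Its interval was the only one of the 5 below 0, and that of Rorb (0.25, 0.062 to 0.44) was the only one above 0.

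Among the D-box factors, 1 of 4 was past the fold as lower and none as higher. Dbp, an activator at D-boxes and a gene that the clock drives through E-boxes, was 62.775 RPKM in control (1556 fragments) and 86.35 RPKM in CUMS (2156 fragments), a log2 ratio of 0.46 (0.37 to 0.55). Nfil3, a repressor at D-boxes that REV-ERB proteins are known to repress, was 6.145 RPKM (183 fragments) and 3.975 RPKM (119 fragments), a log2 ratio of -0.63 (-0.98 to -0.29). Tef and Hlf had log2 ratios of -0.080 and 0.054. Of the 2 E-box competitors Bhlhe40 and Bhlhe41 neither was past the fold (log2 ratios of 0.093 and 0.037).

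Of the 9 genes of kinases and the ubiquitin pathway, and of the 6 genes of corepressors and complex partners, none was past the fold in either direction. The highest of them was Usp2, which encodes a deubiquitinase that acts on clock proteins and whose transcript cycles in many tissues. It had 21.835 RPKM in control against 29.365 in CUMS, a log2 ratio of 0.43 (0.31 to 0.54). The corepressor genes Ncor1 and Hdac3, whose proteins work with REV-ERB alpha, had log2 ratios of -0.023 and 0.0039. Of 7 other transcripts that cycle in many tissues, 2 were past the fold as lower and none as higher. These were Lonrf3 (1.99 and 1.19 RPKM, log2 ratio -0.74, -1.06 to -0.42) and Cdkn1a, the gene of a cell cycle inhibitor (13.68 and 8.515 RPKM, log2 ratio -0.68, -0.92 to -0.45). Dbp, Usp2 and Tspan4 (9.58 and 12.19 RPKM, log2 ratio 0.35, 0.064 to 0.62) had the highest ratios of the 33 genes, and Lonrf3, Cdkn1a and Nfil3 the lowest.

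**Figure D5:**
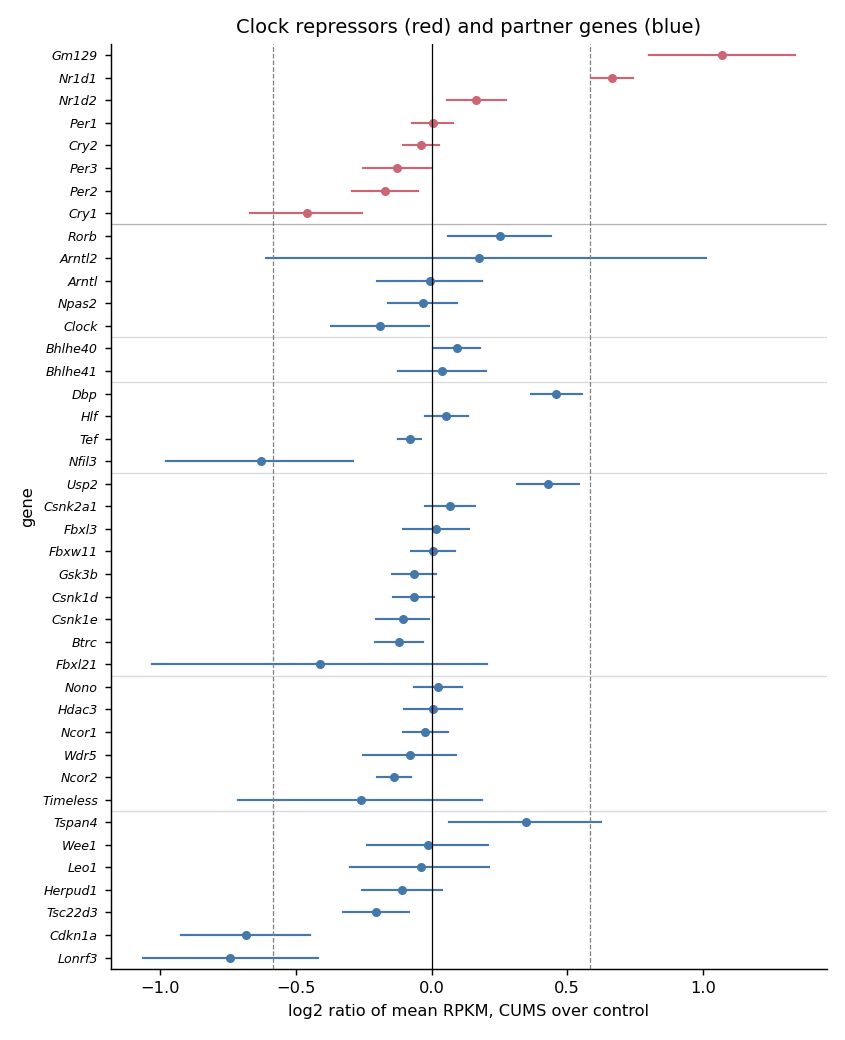
Log2 ratio of mean RPKM, CUMS over control (x axis), of the 8 clock repressors (red) and of 33 partner genes in 6 lists divided by grey lines (blue). Points are ratios, bars are exact 95% counting intervals, and dashed lines mark a fold of 1.5. Gm129 and Nr1d1 lie to the right of the upper dashed line, whereas most partner genes lie near 0.

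With 1 mean per group, likeness to a repressor can only be the distance between log2 ratios. Among genes that reached 5 RPKM, the ratios nearest to Nr1d1 were those of Atp6ap1l (0.66), Emx1 (0.65) and Exosc1 (0.69), and the ratios nearest to Gm129 were those of Rs5-8s1 (1.03), Hba-a2 (1.00) and Mid1 (0.95). Some of these rested on few fragments in control and CUMS, such as Rs5-8s1 (21 and 44, bounds 0.28 to 1.88) and Atp6ap1l (100 and 158, bounds 0.28 to 1.03). Hba-a2 is a hemoglobin gene of red blood cells, and Emx1 is a gene of neocortical neurons.

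Markers of the cells in the tissue differed between the group means as well. In bulk tissue fewer cells of a type and less RNA per cell cannot be told apart. The defining genes of neocortical excitatory neurons were present, and 9 of 9 were higher in CUMS, with a summed level of 2287 RPKM in control and 2814 RPKM in CUMS and a median log2 ratio of 0.33. Red blood cell genes were higher in 4 of 4 (222 and 385 RPKM) and microglia genes in 3 of 5 (87.7 and 95.4 RPKM). Oligodendrocyte genes were lower in 6 of 6 (1772 and 1207 RPKM), striatum genes in 6 of 6 (315 and 271 RPKM) and endothelium genes in 2 of 3 (54.1 and 39.6 RPKM). Astrocyte genes were higher in 4 of 6 (475 and 478 RPKM).

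Markers of septum and hypothalamus were lower in 3 of the 4 that reached 0.5 RPKM (all 7 summed to 43.7 and 16.2 RPKM). Of these Zic1 and Baiap3 held nearly the whole sum. Avp, Oxt, Pmch, Hcrt and Agrp rested on 8 fragments or fewer in each group, and Agrp was listed at 0.01 RPKM, which stands for 0, in control. The markers of the suprachiasmatic nucleus, the master clock in the hypothalamus, summed to 21.2 and 27.2 RPKM. Most of this was Vip, which cortical interneurons also express, and its defining gene Six6 was 0.02 RPKM in control and listed at 0.01 RPKM in CUMS (Lhx1 0.065 and 0.01 RPKM). The part of these shifts in the ratios of the repressors was not tested.

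Set against the excitatory neuron markers, so that every log2 ratio falls by 0.33, Gm129 stayed past the fold (0.74), Nr1d1 (0.34) did not, Cry1 (-0.79) was past it as lower and Nr1d2 (-0.16) turned to lower in CUMS. This scaling was chosen after the values had been seen.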

How the data were processed

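mRNA from the mPFC was sequenced in 2 control and 2 CUMS libraries. Per the methods and the submitters' processing notes, trimmed paired reads were aligned to mm10 with TopHat (1.0.12) and Bowtie (0.11.3) and only reads with a unique alignment were used. The authors deposited RPKM averaged over the libraries of each group, with the gene length, and 0.01 stands for 0. The 3 columns of the authors' own comparison (log2 ratio, direction, NOISeq probability) were not used.

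The members and gene lists were chosen with earlier results of these data known. Genes that reached 0.5 RPKM in a group were described by the log2 ratio of the means without a pseudocount, and a fold above 1.5 was the threshold. Depth was estimated from genes under 1000 bases whose RPKM x length was under 350, as the step between 20 and 200 that best divided these products. The tolerance for a whole multiple was 0.15 steps, met by 86.5% of 406 values in control and by 86.2% of 392 in CUMS. The estimate and the intervals were run on simulated data that held counting error only, at set depths near the estimate. Neither spread between mice nor the gap to the study's read totals could be checked in this way. A depth estimated otherwise would change the width of the intervals. Gene spans and exons are from GENCODE M21 (GRCm38). No test was run, since the group means hold no value per library. limma and NOISeq, which need one, were therefore not used. Named were all members, the 3 highest and 3 lowest partner genes, genes that overlap a member, and the 3 genes nearest to Nr1d1 and to Gm129, beside other genes of the lists and Tmem254b, named after their values were seen. A gene of the partner lists is not reported here and was left out of their counts. Analyses used Python (3.11.15), pandas (2.3.3), scipy (1.17.1) and matplotlib (3.10.9).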

Additional observations from a re-analysis of the deposited data

How the results depend on the processing

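No paired analysis was possible because each group has 1 mean per gene and no value per library, and fits that leave out a replicate were not run either. Of 75 values under alternatives, 55 were classed as unchanged. For log2 ratios and changes of share this meant within the interval of the main value. For counts it meant equal or close to the main count, such as 4 or 2 lower partner genes beside 3. A ratio outside its interval was not classed as unchanged, even where its side of 0 and of the threshold was kept. The 55 included the ratios of all 8 repressors when the median over genes was set to 0. They also included these ratios when the summed RPKM was made equal, and with 0.5 RPKM added to both means.

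Rescaling to the excitatory neuron markers, added after seeing the data, shifted every log2 ratio by -0.326 and gave 0.34 for Nr1d1, -0.16 for Nr1d2, 0.74 for Gm129, -0.32 for Per1, -0.50 for Per2, -0.45 for Per3, -0.79 for Cry1 and -0.365 for Cry2, with a median of -0.34. The count past the fold was then 1 higher and 1 lower. Taking off the fragments that Thra could hold, also added later, gave 1.10 for Nr1d1, and its share of the REV-ERB sum was then 14.6 percentage points higher in CUMS, against 6.07 as deposited. With a fold above 2, 1 repressor (Gm129) was past it as higher, and 0 partner genes in either direction. With the lower threshold (log2 ratio beyond 0.32), 2 repressors (Gm129 and Nr1d1) were past it as higher and 1 (Cry1) as lower. Of the partner genes, 3 were then past it as higher and 4 as lower. Shares over all genes were not computed at these other folds or after the rescaling, so these counts are descriptions. The count of higher partner genes was 1 with no minimum (Rora), and that of lower partner genes was 1 with 0.5 RPKM added. At 0.5 of the estimated depth 1 repressor (Cry1) had an interval below 0, and at 2 times the estimated depth, the direction in which the study's read totals lie, 3 had one.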
